A study of Mus musculus with 18 samples.

Results

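Car3 and Car4 are 2 carbonic anhydrase genes, taken here because they showed opposite patterns across 5 sorted mouse cell populations. They were chosen by their log2 levels in these arrays, so their levels and differences are a description without a test. Members were the probe sets whose gene symbol is Car3 or Car4. A gene with several probe sets took the one with the highest mean over the 18 arrays. They are 2 of the 22180 genes with a probe set of their own symbol, and both passed the filter on dim genes that kept 16011 genes for testing.

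Tissue was digested with enzymes, labelled cells were collected with a flow sorter, and the RNA of each population was amplified and measured on 1 array. The tumor mice carried 1 copy each of aP2-Cre, a tdTomato reporter and SmoM2, a Smoothened allele that keeps hedgehog signalling on without ligand, on the strain background labelled BJ;SJL;B6.129. Their tumors gave Tom+/Pecam1+, Tom+/Pecam1- and Tom-/Pecam1- cells (n = 4 arrays each), with repeats 1 to 3 taken at postnatal day 48 and repeat 4 at day 38. Mice with aP2-Cre and tdTomato but no SmoM2, of strain B6;SJL, gave Tom+ and Tom- cells of the sternocleidomastoid, a neck muscle, at postnatal day 21 (n = 3 arrays each), and muscle was not sorted by Pecam1. All 5 populations thus came from aP2-Cre mice, in which Tomato marks cells with past or present activity of the Fabp4 (aP2) promoter, whatever their type. Pecam1 is an endothelial surface protein. Tumor and muscle differed in age, strain and the SmoM2 allele, whose contributions cannot be told apart.

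Carbonic anhydrases catalyse the exchange between carbon dioxide and bicarbonate with a proton. Car4 is a glycolipid-anchored enzyme on the outer cell surface and is known from the capillary endothelium of lung and muscle, where it acts beside bicarbonate and acid transporters. Car3 is a soluble enzyme of the cytosol with low catalytic activity and is known as an abundant protein of slow skeletal muscle fibres and of adipocytes.

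The region around the start of Car4 is shown because Car4 was high in both populations rich in the endothelial marker Pecam1. It spans chr11:84957504-84957803 of build GRCm38.p6 on the plus strand, from RefSeq, with 250 bases before the start and 50 after it. Capitals mark the 4-letter motif GGAA on either strand, the core of sites for ETS factors.
Car4: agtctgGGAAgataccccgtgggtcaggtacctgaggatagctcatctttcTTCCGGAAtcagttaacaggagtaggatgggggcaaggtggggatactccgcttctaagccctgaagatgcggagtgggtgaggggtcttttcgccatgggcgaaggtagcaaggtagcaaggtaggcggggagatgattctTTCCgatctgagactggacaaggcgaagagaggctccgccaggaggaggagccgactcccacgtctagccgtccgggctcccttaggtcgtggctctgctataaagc
GGAA was found 4 times on both strands together, and 96.0% of 32851 mouse promoter windows of that length held at least 1. CCGGAA was found 2 times, both within the run TTCCGGAA and overlapping 2 of the GGAA matches, against 14.9% of windows with a match. TATAAA was found 1 time, against 13.6% of windows, and this match lay within the 50 bases after the start, not before it. CANNTG, present in 72.3% of windows, was not found. The motifs were chosen after the sequence was seen and are a description only.

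In the sorted cells Pecam1 itself averaged 11.88 ± 0.21 in Tom+/Pecam1+ tumor cells (SD, n = 4) and 11.18 ± 0.07 in Tom+ muscle cells (SD, n = 3), against 7.10 to 8.10 in the other 3 populations. All values are deposited log2 values, so that 1 unit is a doubling. Array medians were 5.41 to 5.44 in tumor and 5.04 to 5.10 in muscle, and differences between tumor and muscle are therefore given after subtracting each array's median. In tumor the mean over the 3 populations was the same for every repeat number at every probe set, within 7.67e-05, while in muscle such means had a median range of 0.248. A value that is high in 1 tumor population of a repeat is therefore tied to lower values in the other populations of that repeat, and differences within a repeat are free of this. In muscle, repeats 1 and 2 held genes of the salivary gland, a neighbouring tissue: Bpifa2, a salivary secretory protein, was at 10.93, 10.92 and 4.13 in Tom+ cells and 12.73, 10.96 and 4.09 in Tom- cells (repeats 1 to 3).

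Car4 was high in the Pecam1-rich populations and low in the other 3. It was at 8.20, 8.99, 8.51 and 10.20 in Tom+/Pecam1+ tumor cells (repeats 1 to 4), with a mean of 8.97 ± 0.88 (SD, n = 4). It was at 5.68, 5.24, 5.27 and 4.02 in Tom+/Pecam1- tumor cells, with a mean of 5.05 ± 0.72 (SD, n = 4). The lowest value of all 18 arrays was thus the day 38 repeat of this population, the same repeat that was highest among Tom+/Pecam1+ cells. Car4 was at 5.48, 5.13, 5.58 and 5.14 in Tom-/Pecam1- tumor cells, with a mean of 5.33 ± 0.23 (SD, n = 4). It was at 10.03, 10.39 and 10.35 in Tom+ muscle cells, with a mean of 10.26 ± 0.19 (SD, n = 3). It was at 5.96, 5.91 and 5.31 in Tom- muscle cells, with a mean of 5.73 ± 0.37 (SD, n = 3). No array of the 3 low populations reached the lowest of the 2 high populations.

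The order of Car4 from high to low was Tom+ muscle, Tom+/Pecam1+ tumor, Tom- muscle, Tom-/Pecam1- tumor and Tom+/Pecam1- tumor cells, also after subtracting array medians. Tom+ muscle and Tom+/Pecam1+ tumor cells overlapped on deposited values, through the day 38 tumor array at 10.20, but not after subtracting array medians. Tom- muscle cells overlapped Tom-/Pecam1- tumor cells on deposited values but not on subtracted ones. They overlapped Tom+/Pecam1- tumor cells on both, after subtraction through Tom- muscle repeat 3 (0.25) and Tom+/Pecam1- repeat 1 (0.27). The Pecam1- tumor populations overlapped each other. In bulk RNA, fewer cells of a type and less RNA per cell cannot be told apart.

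Car3 ran the other way. It was at 6.63, 5.84, 5.40 and 7.54 in Tom+/Pecam1+ tumor cells (repeats 1 to 4), with a mean of 6.35 ± 0.94 (SD, n = 4). It was at 11.24, 11.50, 11.11 and 10.20 in Tom+/Pecam1- tumor cells, with a mean of 11.01 ± 0.56 (SD, n = 4). These were the 3 highest Car3 values of the 18 arrays and, for the day 38 repeat, the fifth. Car3 was at 9.30, 9.83, 10.66 and 9.43 in Tom-/Pecam1- tumor cells, with a mean of 9.80 ± 0.62 (SD, n = 4). It was at 3.88, 3.96 and 4.64 in Tom+ muscle cells, with a mean of 4.16 ± 0.42 (SD, n = 3), and 1 of these 3 arrays exceeded the 40th percentile of its own values, the level used to call a gene dim. It was at 9.28, 4.18 and 7.15 in Tom- muscle cells, with a mean of 6.87 ± 2.56 (SD, n = 3). These 3 arrays thus ran from within the range of Tom+ muscle cells to just below Tom-/Pecam1- tumor cells, and no other population was as uneven.

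**Figure D1:**
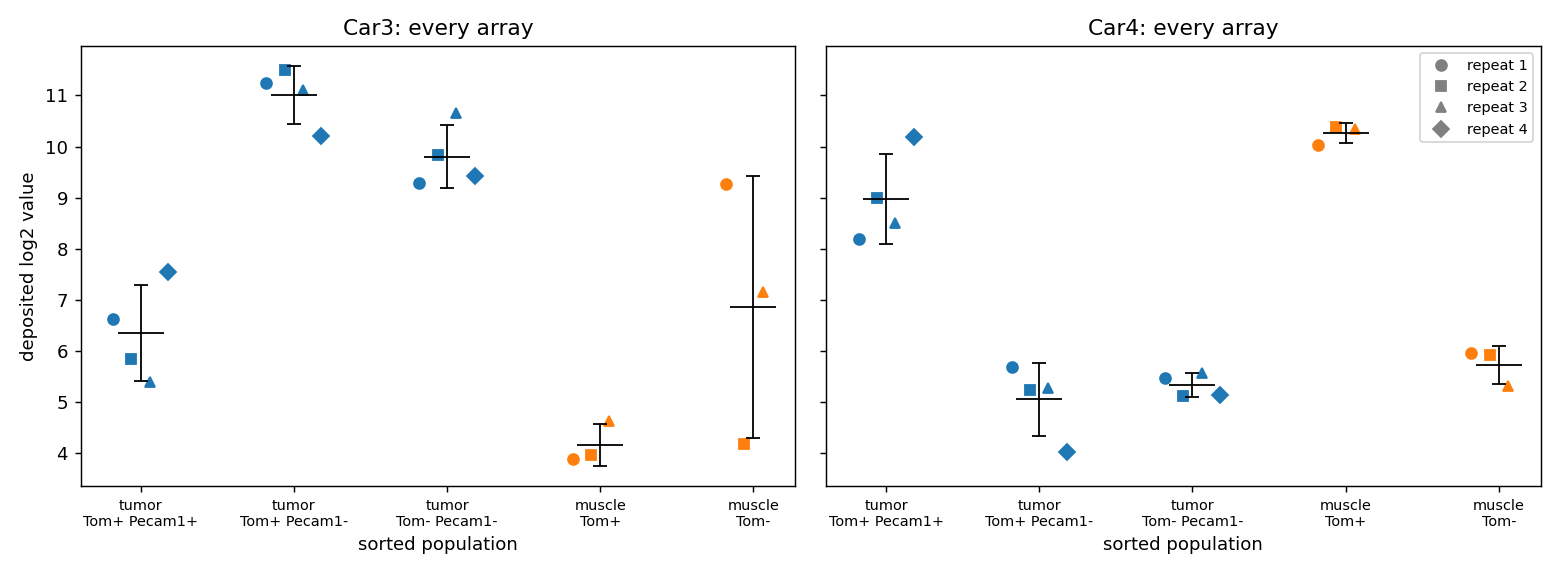
Deposited log2 values of Car3 (left panel) and Car4 (right panel) in the 5 sorted populations, tumor in blue and muscle in orange; symbols are single arrays by repeat number, and bars are the mean and SD (n = 4 in tumor, n = 3 in muscle). Car4 lies at 8.20 or above in Tom+/Pecam1+ tumor and Tom+ muscle cells and at 5.96 or below elsewhere, while Car3 is highest in both Pecam1- tumor populations and spreads from 4.18 to 9.28 in Tom- muscle cells.

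The order of Car3 from high to low was Tom+/Pecam1- tumor, Tom-/Pecam1- tumor, Tom- muscle, Tom+/Pecam1+ tumor and Tom+ muscle cells, on deposited and on subtracted values. The 2 Pecam1- tumor populations overlapped. Tom- muscle cells overlapped Tom+/Pecam1+ tumor cells, and after subtracting array medians they also overlapped Tom-/Pecam1- tumor cells. Tom+/Pecam1+ tumor cells lay above Tom+ muscle cells without overlap. Hence the top of the Car4 order, Tom+ muscle, was the bottom of the Car3 order. By its mean Tom+/Pecam1- tumor was the bottom of the Car4 order, and it was the top of the Car3 order. That bottom place was not firm, since the 2 Pecam1- tumor populations overlapped for Car4 too. Without the day 38 array of Tom+/Pecam1- cells, Car4 differed by 0.07 between them, with Tom-/Pecam1- cells lower.

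Car3 had another probe set, which gave the same order of populations. Its means were 5.68 ± 0.92 in Tom+/Pecam1+ tumor, 9.67 ± 0.59 in Tom+/Pecam1- tumor and 8.41 ± 0.67 in Tom-/Pecam1- tumor cells (SD, n = 4 each). They were 4.46 ± 0.13 in Tom+ muscle and 6.10 ± 1.47 in Tom- muscle cells (SD, n = 3 each). Its smaller distances between populations matter for tumor against muscle, as given with that comparison. Car4 had 1 probe set. In the RefSeq gene order Car3 lies between Car1 and Car2, with Car13 beyond Car1, whereas Car4 lies on another chromosome between Znhit3 and Usp32.

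Within tumors, Pecam1+ cells among the Tom+ cells had less Car3 and more Car4 than the Pecam1- cells. Car3 was 4.66 lower on the log2 scale (difference -4.66, 25.3-fold), and the difference ran from -5.71 to -2.66 over the 4 repeats. Car4 was 3.92 higher (15.1-fold), with differences of 2.51 to 6.17 over the 4 repeats. Both differences exceeded the larger SD of the groups, 0.94 for Car3 and 0.88 for Car4, and neither gene's groups overlapped. The day 38 repeat had the smallest Car3 difference and the largest Car4 difference of the 4.

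Against Tom-/Pecam1- tumor cells, the Tom+/Pecam1+ cells differed in the same directions. Car3 had a difference of -3.45 (10.9-fold lower), between -5.26 and -1.89 in the 4 repeats. Car4 had a difference of 3.64 (12.5-fold higher), between 2.72 and 5.05 in the 4 repeats. The groups did not overlap for either gene. This comparison shares its Tom+/Pecam1+ arrays with the preceding one.

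Among Pecam1- tumor cells, the Tom+ fraction had more Car3 than the Tom- fraction, and Car4 stayed low in both. Car3 had a difference of 1.21 (2.31-fold higher), and it was higher in Tom+ cells in 4 of 4 repeats, by 1.95, 1.67, 0.45 and 0.78. The groups overlapped through Tom-/Pecam1- repeat 3 at 10.66, yet the difference was larger than the larger SD, 0.62. Car4 had a difference of -0.28, less than the larger SD of 0.72, with 2 repeats higher and 2 lower. The sign of the Car4 difference rested on the day 38 repeat: without the Tom+/Pecam1- day 38 array it was 0.07, and without all day 38 arrays it was 0.0036.

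In muscle, Tom+ cells had far more Car4 and on average less Car3 than Tom- cells. Car4 had a difference of 4.53 (23.1-fold higher), and it was 4.07, 4.48 and 5.04 within repeats 1, 2 and 3. The larger SD was 0.37, and the groups did not overlap. Car3 had a difference of -2.71 (6.53-fold lower), and it was -5.39, -0.22 and -2.51 within the 3 repeats. It was lower in Tom+ cells in 3 of 3 repeats, but the groups overlapped and repeat 2 differed little. Without Tom- repeat 1 the Car3 difference was -1.50, and without Tom- repeat 2 it was -4.05.

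**Figure D2:**
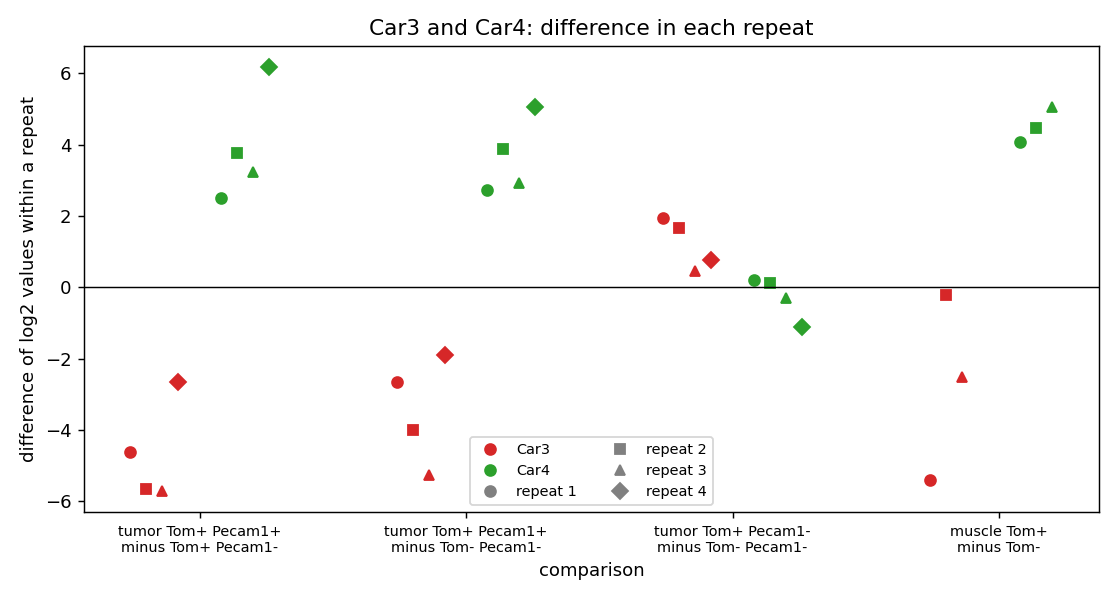
Difference of log2 values between populations of the same repeat number, for Car3 (red) and Car4 (green), in 3 tumor comparisons (4 repeats each) and in muscle (3 repeats); symbols mark the repeat. In the comparisons of Tom+/Pecam1+ with Pecam1- tumor cells and of Tom+ with Tom- muscle cells every Car4 point lies above 0 and every Car3 point below it, while among Pecam1- tumor cells Car3 lies above 0 in 4 of 4 repeats and Car4 on both sides of 0.

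The Tom contrast therefore had opposite signs in the 2 tissues for Car3. Taken as the Tom contrast of Pecam1- tumor cells minus that of muscle, the difference was 3.92 for Car3 and -4.81 for Car4. Tom+ muscle cells were not separated by Pecam1, so these contrasts set populations of unlike endothelial content against each other. For the other carbonic anhydrases this difference of contrasts was tested, with 39.5% of all genes called (20.9% higher and 18.5% lower). Car11, Car9 and Car12 were higher in it (1.63, 1.32 and 1.08) and Car8 and Car7 lower (-4.50 and -1.56), with limma's adjusted p from 2.47e-08 to 0.00876.

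Between tissues, Tom+/Pecam1+ tumor cells had more Car3 and less Car4 than Tom+ muscle cells. After subtracting array medians the Car3 difference was 1.84 (3.57-fold higher) and the Car4 difference -1.64 (3.11-fold lower), each larger than the larger SD (0.94 and 0.88), and the groups did not overlap for either. On deposited values the differences were 2.19 and -1.28. With the other probe set, Car3 differed by 0.87, less than that SD. Tom-/Pecam1- tumor cells had more Car3 than Tom- muscle cells by 2.60 (6.06-fold), nearly the same as the larger SD of 2.56, and the groups overlapped. That value was 3.80 without Tom- muscle repeat 1 and 1.24 without Tom- muscle repeat 2. Car4 differed by -0.73 in the same comparison, and by -0.40 on deposited values.

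The other carbonic anhydrases could be tested, since they were not used in choosing Car3 and Car4. Of 16 listed family members 14 had a probe set of their own, Car5a and Car14 being only on shared probe sets. Of the 12 besides Car3 and Car4, 10 were tested, and Car1 and Car6 were dim. The tests were limma's moderated tests in 1 fit over the 5 populations, called at an adjusted p of 0.05.

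In Tom+ against Tom- muscle cells 2 of the 10 rose and 4 fell, where 39.7% of all genes tested were called, 19.1% higher and 20.5% lower, and the median change of the 10 was -0.33, against -0.0022 for all genes. Car8, a member without enzyme activity that binds the inositol trisphosphate receptor, averaged 9.88 ± 0.15 in Tom+ and 5.80 ± 0.57 in Tom- cells (SD, n = 3 each), a change of 4.08 ± 0.26 (SE, adjusted p = 1.44e-09). Car7, a cytosolic enzyme, rose by 1.51 ± 0.23 (SE, adjusted p = 5.08e-05). Car12 and Car9, both surface enzymes that span the membrane, changed by -1.37 and -1.38 (adjusted p = 1.92e-07 and 0.000653). Car2, a fast cytosolic enzyme, and Car11, a secreted member without enzyme activity, changed by -2.14 and -1.07 (adjusted p = 0.00176 and 8.38e-05). Car8 and Car7 thus moved in the direction of Car4, while the other 4 moved in the direction of the Car3 difference.

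In Tom+/Pecam1+ against Tom+/Pecam1- tumor cells 3 of the 10 rose and 2 fell, with 44.6% of all genes called, 21% higher and 23.6% lower, and the median change was 0.07, against 0.01 for all genes. Car8 averaged 8.36 ± 0.36 in Pecam1+ and 5.29 ± 0.33 in Pecam1- cells (SD, n = 4 each), a change of 3.07 ± 0.23 (SE, adjusted p = 5.61e-09). Car7 rose by 1.70 ± 0.20 (SE, adjusted p = 2.12e-06), and Car11 fell by 1.50 (adjusted p = 2.77e-07). Car5b, the mitochondrial form, rose by 0.65 (adjusted p = 0.0321), but it was not called when repeat numbers entered the fit as blocks (adjusted p = 0.0873), or without any 1 of Pecam1+ repeats 1, 2 and 3 or Pecam1- repeats 2 and 4 (adjusted p = 0.066 to 0.094). Car9 changed by -0.71 (adjusted p = 0.0233), and its call was lost without Pecam1+ repeat 1 or 4 or Pecam1- repeat 4 (adjusted p = 0.0505, 0.0584 and 0.0815) and with the mean of its probe sets (adjusted p = 0.126) or without all day 38 arrays (adjusted p = 0.153).

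Against Tom-/Pecam1- tumor cells, where 41.7% of all genes were called, 20.5% higher and 21.2% lower, 2 of the 10 rose in Tom+/Pecam1+ cells and 4 fell, with a median of -0.08, against 0.02 for all genes. Car8 and Car7 rose by 2.66 and 1.66 (adjusted p = 4.06e-08 and 3.45e-06), and Car2, Car9, Car11 and Car12 changed by -1.50, -0.78, -0.93 and -0.32. The call of Car12 was lost with the block (adjusted p = 0.096) and without any 1 of 5 arrays, Tom+/Pecam1+ repeats 2, 3 and 4 and Tom-/Pecam1- repeats 2 and 3 (adjusted p = 0.0558 to 0.098). Between the Pecam1- tumor populations, 25.4% of all genes were called, 13.4% higher and 12% lower, which is 4065 genes, and 2693 genes were called with the block. Of the 10, 1 was called: Car11 rose in Tom+ cells by 0.56 (adjusted p = 0.011). Without the day 38 arrays its adjusted p was 0.091. The median of the 10 there was -0.06, against 0.03 for all genes.

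Between tissues, in Tom+/Pecam1+ tumor against Tom+ muscle cells, 1 of the 10 rose and 2 fell, with 34.2% of all genes called, 15.7% higher and 18.5% lower, and a median of -0.24, against -0.03. Car8 fell by 1.88 (adjusted p = 2.61e-05), Car7 changed by -0.75 (adjusted p = 0.0145, 0.145 on deposited values, 0.0536 with the block and 0.061 without Tom+ muscle repeat 1), and Car13, a cytosolic enzyme, rose by 1.21 (adjusted p = 0.0112, and 0.0519 without Tom+ muscle repeat 2). In Tom-/Pecam1- tumor against Tom- muscle cells 1 rose and 5 fell, with 48.7% called, 23.8% higher and 24.9% lower, and a median of -0.36, against -0.02. Car12, Car9, Car7 and Car15 changed by -1.31, -1.25, -0.88 and -0.51 there, and Car15 did not pass on deposited values (adjusted p = 0.283). Car10 changed by -0.29 (adjusted p = 0.0445), turned to 0.045 on deposited values, and was not called without any 1 of Tom- muscle repeats 1 and 2 or tumor repeats 1, 3 and 4 (adjusted p = 0.0567 to 0.201). Car13 changed by 0.88 (adjusted p = 0.0403), and was not called with the block (adjusted p = 0.0806) or without any 1 of Tom- muscle repeats 2 and 3 or tumor repeats 2 and 4 (adjusted p = 0.0561 to 0.178). On deposited values calls in the first of these comparisons were 7642 higher and 802 lower, against 2513 and 2969 after subtraction, and in the second 7854 and 1554, against 3805 and 3991.

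**Figure D3:**
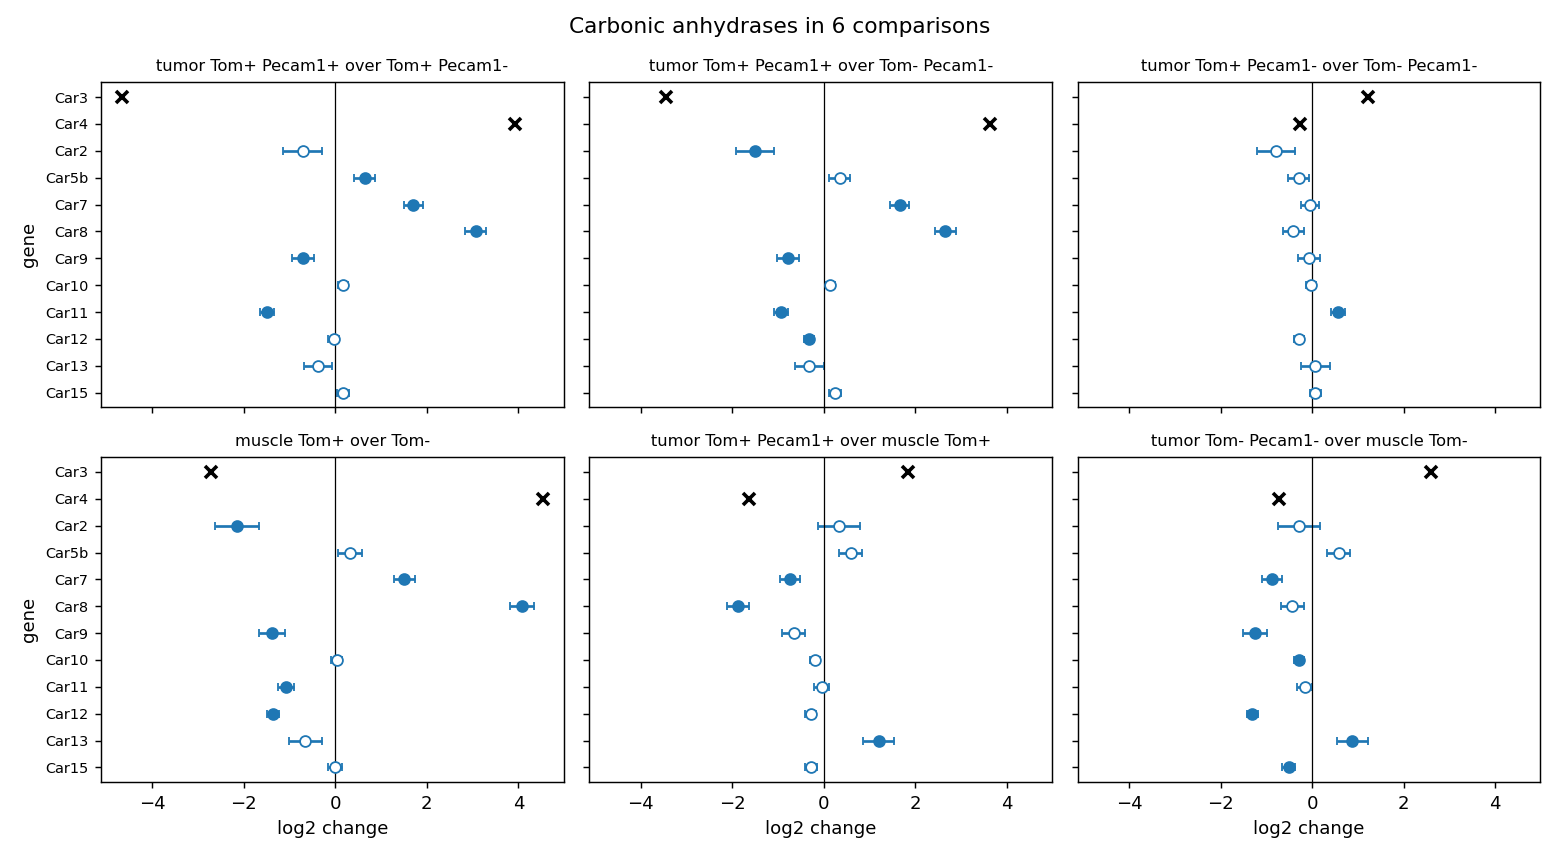
Log2 change of 12 carbonic anhydrases in 6 comparisons, in each panel the population named first over the one named after it; circles with SE bars are the 10 tested members, filled where the adjusted p was under 0.05, and crosses are Car3 and Car4, which were not tested. Comparisons between tissues are after subtracting array medians. Car8 and Car7 lie right of 0 in the panels where Car4 does so, and Car11 lies left of 0 in the panels of Tom+/Pecam1+ over Pecam1- tumor cells and of Tom+ over Tom- muscle cells.

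Car1 and Car6 were dim, but each stood out on single arrays. Car6, an enzyme secreted into saliva, was at 3.73, 4.47 and 3.32 in Tom+ muscle cells and 7.92, 4.04 and 3.31 in Tom- muscle cells, the high value falling on the array with the highest Bpifa2 (12.73). This was also the Tom- muscle array with the highest Car3. Car1, known from red blood cells, was at 6.23, 5.37, 4.07 and 4.11 in Tom-/Pecam1- tumor cells and between 3.00 and 4.22 on all other arrays.

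Between populations of a tissue, endothelial genes were high where Car4 was high. All 17 genes of an endothelial list were higher in Tom+ than in Tom- muscle cells, where 19.1% of all genes were, and in Tom+/Pecam1+ than in Tom+/Pecam1- and Tom-/Pecam1- tumor cells, where 21% and 20.5% of all genes were. Their summed level, as log2 of the summed linear values, was 14.53 to 15.18 in Tom+/Pecam1+ tumor cells, 10.84 to 11.16 in Tom+/Pecam1- and 10.48 to 10.99 in Tom-/Pecam1- tumor cells, 14.52 to 14.61 in Tom+ muscle and 11.07 to 11.35 in Tom- muscle cells. Within Tom+/Pecam1+ tumor cells the day 38 array ran the other way. It had the highest Car4 (10.20) but the lowest endothelial sum (14.53, against 15.00 to 15.18 in repeats 1 to 3), the lowest sum of the muscle capillary genes described next (13.93, against 14.16 to 14.26) and the lowest Pecam1 (11.57). It also had the highest sums in that population of myogenic (9.53), fibroblast (11.10), macrophage (10.68) and pan-leukocyte genes (10.43), and the highest Car3 (7.54). Such comparisons between tumor repeats are not free of the equal repeat means. The day 38 array of Tom-/Pecam1- cells had the lowest myogenic (10.29), macrophage (13.35) and pan-leukocyte (11.72) sums of its population, but the highest fibroblast sum (14.65). The part of these cell types in the Car3 and Car4 values of the day 38 arrays was not tested. Between Tom+/Pecam1+ tumor and Tom+ muscle cells, Tie1 was higher and Sox17 lower of these 17 genes (0.52 and -0.51), with a median of 0.11, while Car4 differed by -1.64. In that comparison 15.7% of all genes were higher and 18.5% lower. Tie1 was not called without Tom+ muscle repeat 1 (adjusted p = 0.0608), and Sox17 was not called without Tom+ muscle repeat 2 (adjusted p = 0.062) or on deposited values (adjusted p = 0.374). On deposited values 7 of the 17 were higher and 0 lower, with a median of 0.46. On that scale 7642 of the 16011 genes tested were higher and 802 lower, and the median change of all genes was 0.33. The part of endothelial content in the Car4 differences was not tested.

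A list of 12 genes of muscle capillary endothelium, such as Gpihbp1, which carries lipoprotein lipase across the capillary wall, separated tumor from muscle in the direction of Car4. All 12 rose in Tom+ over Tom- muscle cells, with a median change of 2.65, where 19.1% of all genes rose. All 12 also rose in Tom+/Pecam1+ over Tom+/Pecam1- tumor cells, with a median of 3.15, where 21% of all genes rose. In Tom+/Pecam1+ tumor against Tom+ muscle cells 10 of the 12 fell and none rose, with a median of -0.75, where 18.5% of all genes fell. On deposited values 5 of the 12 fell and 0 rose, with a median of -0.39, where 802 of the 16011 genes tested fell. Timp4, a metalloproteinase inhibitor, and the water and glycerol channel Aqp7 had changes of -2.86 and -2.66 (adjusted p = 6.58e-06 and 3.11e-06). The transcription factors Tcf15 and Meox2 had changes of -1.38 and -0.99 (adjusted p = 1.56e-06 and 5.21e-05). The list was chosen with earlier results of these data known and is no independent evidence of its direction.

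Beside Car4, bicarbonate transporters were called in both directions, the proton and lactate transporters called mostly fell, and the aquaporins called mostly rose. Of 8 bicarbonate transporters tested 1 rose and 4 fell in Tom+ over Tom- muscle cells (median -0.24), where 19.1% of all genes rose and 20.5% fell, Slc26a6 by 0.42 and Slc4a4, Slc4a3, Slc4a1 and Slc4a8 by -1.42, -1.55, -0.98 and -0.47. Slc4a8 was not called with the block (adjusted p = 0.0618) or without any 1 of Tom+ repeats 2 and 3 or Tom- repeat 2 (adjusted p = 0.0678 to 0.105). Without repeats 1 and 2 of both muscle populations Slc26a6 was not called (adjusted p = 0.197). In Tom+/Pecam1+ over Tom+/Pecam1- tumor cells 1 of the 8 rose and 2 fell (median 0.06), near the 44.6% of all genes called there, Slc4a9 by 0.46 and Slc4a3 and Slc4a11 by -1.07 and -0.63. Of 12 proton and lactate transporter genes, 2 rose and 6 fell in Tom+ over Tom- muscle cells (median -0.61). In the same tumor comparison 0 of these 12 rose and 6 fell (median -0.29), where 23.6% of all genes fell. Aquaporins, channels for water, some of which also pass gases or glycerol, were called in the direction of Car4 in muscle, where Aqp7, Aqp1 and Mip rose by 3.88, 3.07 and 0.59 and none of 9 fell. In the same tumor comparison Aqp1, Aqp7, Aqp11 and Mip rose by 4.10, 2.40, 1.70 and 0.40, and Aqp4 fell by 0.88.

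Beside Car3, genes of several cell types differed between populations. Fast fibre genes, contractile genes of fast-twitch muscle, had a summed level of 9.28 to 9.80 in Tom+/Pecam1+ tumor, 11.61 to 12.19 in Tom+/Pecam1- tumor and 10.16 to 10.89 in Tom-/Pecam1- tumor cells, 9.09 to 9.91 in Tom+ muscle and 10.60 to 13.41 in Tom- muscle cells. Of 12 such genes 9 fell in Tom+/Pecam1+ against Tom+/Pecam1- tumor cells (median -2.06), where 23.6% of all genes fell. In Tom+/Pecam1- against Tom-/Pecam1- tumor cells 6 rose (median 1.02), where 13.4% of all genes rose, and in Tom+ against Tom- muscle cells 11 fell (median -2.39), where 20.5% did. In that order of comparisons Car3 differed by -4.66, 1.21 and -2.71. The fast sarcomere protein Actn3 changed by -3.51, 1.61 and -3.67, and the calcium pump Atp2a1 by -2.09, 1.17 and -2.74. Of 12 slow fibre genes 8 fell and 1 rose in the first of these comparisons (median -0.44). In Tom-/Pecam1- tumor against Tom- muscle cells, where 23.8% of all genes rose and 24.9% fell, 6 of them rose and 4 fell (median 0.35), but 3 rose and 4 fell with the block.

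Car3 and fast fibre genes parted in Tom-/Pecam1- tumor against Tom- muscle cells, where Car3 was higher by 2.60 and 10 of the 12 fibre genes fell (median -1.59), or 6 on deposited values (median -1.25). Pvalb, a calcium buffer of fast fibres, and Myh4, the fastest myosin heavy chain, had changes of -4.51 and -4.19 there (adjusted p = 2.09e-05 and 5.22e-05). Pvalb was at 4.49 to 5.11 on the 12 tumor arrays, those with the highest Car3 values among them. Myh4 was low there too, with population means of 3.87 to 4.06. Tnni2 and Tnnt3 instead averaged 8.67 and 9.81 in Tom+/Pecam1- tumor cells and 5.95 and 6.39 in Tom+/Pecam1+ tumor cells. In Tom-/Pecam1- tumor cells they averaged 7.80 and 8.32. Within Tom- muscle cells the repeats ranked alike for Pvalb, Myh4 and Car3. Pvalb was at 10.64, 6.24 and 9.77 and Myh4 at 9.53, 5.10 and 8.55 in repeats 1, 2 and 3. Car3 was at 9.28, 4.18 and 7.15 on these arrays. Sums of slow fibre and of myogenic genes did not rank this way there. They were 12.14, 12.07 and 11.96 for slow fibre genes and 11.73, 12.13 and 11.99 for myogenic genes. The single fast fibre genes were chosen for display after their values were seen, and the part of fibre content in the spread of Car3 was not tested.

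**Figure D4:**
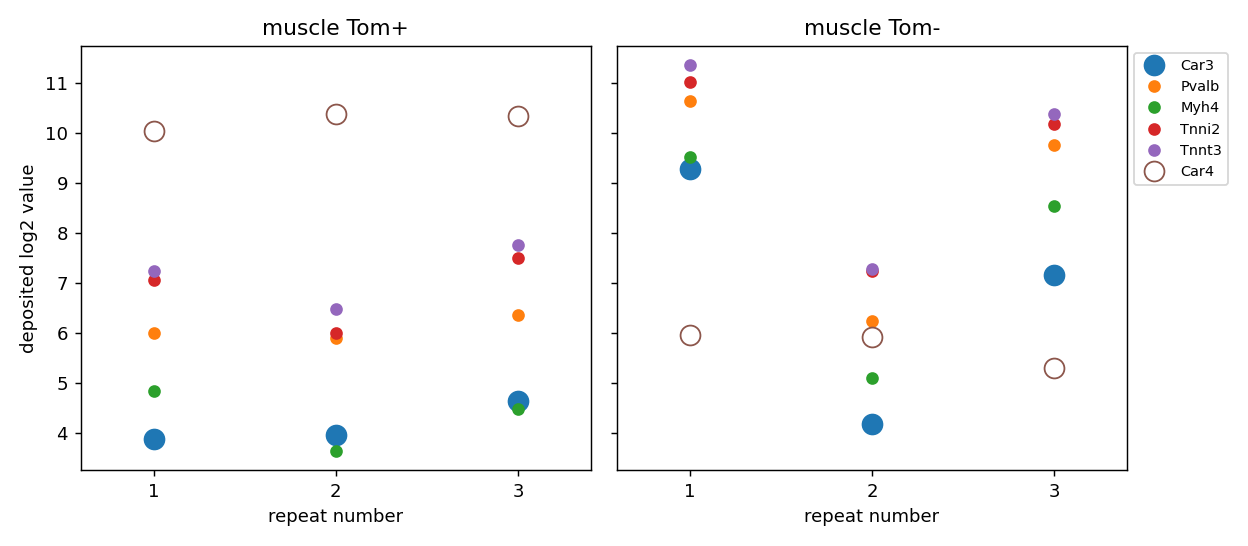
Deposited log2 values of Car3, Car4 and the fast fibre genes Pvalb, Myh4, Tnni2 and Tnnt3 on the 3 Tom+ (left panel) and 3 Tom- (right panel) muscle arrays, by repeat number; large symbols are Car3 (filled) and Car4 (open), and only values of 1 gene can be compared. In Tom- muscle cells repeat 2 is lowest and repeat 1 highest for Car3 and for each of the 4 fibre genes, while Car4 stays between 5.31 and 5.96.

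Genes of fibroblasts, muscle precursors and immune cells also differed between populations that differed in Car3. The 12 fibroblast genes had a summed level of 10.50 to 11.10 in Tom+/Pecam1+ tumor, 13.99 to 14.59 in Tom+/Pecam1- tumor and 14.52 to 14.65 in Tom-/Pecam1- tumor cells, 9.21 to 9.98 in Tom+ muscle and 14.21 to 14.36 in Tom- muscle cells. On the 3 Tom- muscle arrays the fibroblast sum was 14.36, 14.21 and 14.31 in repeats 1, 2 and 3. Car3 was at 9.28, 4.18 and 7.15 there. The 10 myogenic genes all rose in Tom+/Pecam1- against Tom-/Pecam1- tumor cells (median 1.49), the comparison in which Car3 was 1.21 higher and 13.4% of all genes rose. In it all 11 macrophage genes (median -1.30), all 8 pan-leukocyte genes (median -2.06) and 6 of 8 tenocyte genes (median -1.82) fell, where 12% of all genes did. In Tom-/Pecam1- tumor against Tom- muscle cells, where Car3 was 2.60 higher, all 11 macrophage and all 8 pan-leukocyte genes rose (medians 2.35 and 1.99), against 23.8% of all genes. The macrophage sum was 9.79 to 10.68 in Tom+/Pecam1+ tumor, 12.14 to 12.47 in Tom+/Pecam1- tumor and 13.35 to 13.75 in Tom-/Pecam1- tumor cells, 9.93 to 10.51 in Tom+ muscle and 11.05 to 11.29 in Tom- muscle cells. The part of any of these cell types in the Car3 differences was not tested.

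Adipocyte genes, taken as a sum, had another order of populations than Car3. Adipoq, an adipocyte hormone, was at 4.41 to 5.56 over all 18 arrays. The summed level of the 14 adipocyte genes with a probe set was 10.48 to 10.83 in Tom+/Pecam1+ tumor cells, where Car3 was low, and 9.51 to 9.80 in Tom+/Pecam1- tumor cells, where Car3 was highest. It was 10.10 to 10.17 in Tom-/Pecam1- tumor cells, 9.97 to 10.07 in Tom+ muscle and 9.37 to 9.55 in Tom- muscle cells. Single genes can differ from the sum: Adipoq had its highest mean, 5.10, in Tom-/Pecam1- tumor cells. The part of adipocytes in the Car3 differences was not tested.

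The genes most like each of the 2 were ranked among 14350 tested genes by the root mean square difference of log2 values over the 18 arrays, each gene centred on its own mean. For Car3, whose own root mean square about its mean was 2.65, they were Pla2g4a (0.99), Ptgs2 (1.01), Cdh11 (1.09), Bhlhe41 (1.12), Svep1 (1.15), Myh8, Serpina3n and Sfrp4 (1.17 each). Their means in Tom- muscle cells ran from 4.94 for Serpina3n to 7.59 for Cdh11. For Car4, whose own value was 2.15, they were Ushbp1 (0.53), Slc26a10 and Timp4 (0.55 each), Rasgrf2 and Bcl6b (0.57 each), Kank3 (0.60), Mecom (0.63) and Adgrg1 (0.65).

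The distances were shorter for Car4 than for Car3, whose own spread was larger too. Timp4 was at 7.38, 8.31, 7.36 and 8.79 in Tom+/Pecam1+ tumor cells and 5.13, 4.55, 5.10 and 4.07 in Tom+/Pecam1- tumor cells. Like Car4, it was highest in the day 38 repeat of the first and lowest in that of the second. Timp4 was picked for its small distance from Car4 on these same arrays, so this likeness is no separate evidence. Equal repeat means also tie such highs and lows together. Among the carbonic anhydrases Car8 came 14th for Car4, at a distance of 0.68, and Car7 came 333rd at 1.44. Car3 and Car4 were among the least alike of all pairs with either gene. Car4 ranked 14324th of 14350 for Car3, at a distance of 4.51. Such a rank follows from their choice for opposite patterns on these same arrays and is no separate evidence. The distance also grows with a gene's own spread. The arrays of 1 population share their sort, and tumor arrays of 1 repeat share a fixed mean, so these distances describe the 18 arrays and carry no test.

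**Figure D5:**
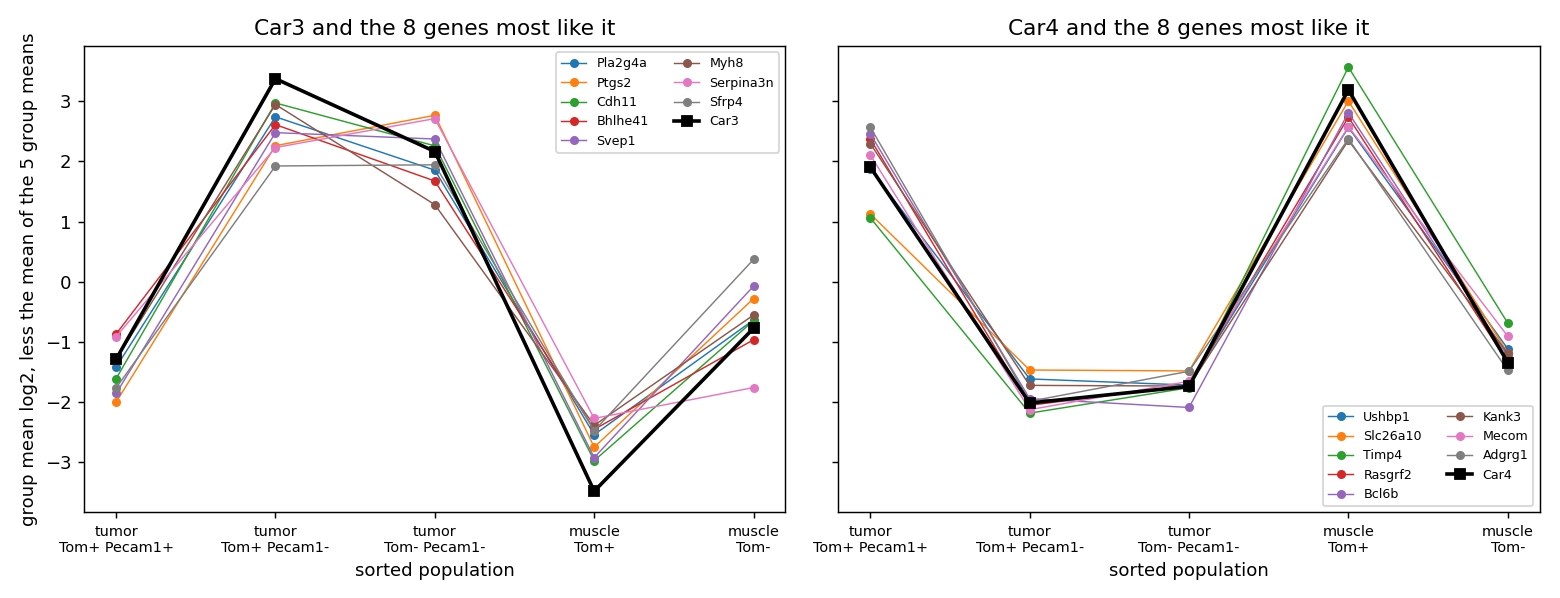
Group means of log2 values in the 5 sorted populations, less the mean of the 5 group means, for Car3 (left panel, black) and Car4 (right panel, black) and the 8 genes most like each (coloured); lines only join the points of 1 gene. The Car3 set is high in both Pecam1- tumor populations and low in Tom+/Pecam1+ tumor and Tom+ muscle cells, and the Car4 set has its high points exactly there.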

How the data were processed

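The deposited values were log2 probe set values that the authors made with RMA and Partek, per the submitters' processing notes; versions and the array build are not given in the sources used here. All 18 arrays and 41345 probe sets were read, and no arrays were identical. A gene took its single-symbol probe set with the highest mean over 18 arrays, and genes whose probe set lay above the 40th percentile of an array on fewer than 3 arrays counted as dim (16011 genes tested, 6169 dim). One limma model (limma 3.58.1, R 4.3.3) over the 5 populations gave moderated tests with Benjamini-Hochberg adjustment within each of 7 comparisons and a threshold of 0.05. The model was first tested on simulated data with independent noise on each array. That simulation had no equal repeat means as in tumor, so it does not cover this feature. Tumor against muscle was compared after each array's median was subtracted. Tables and figures were made with pandas 2.3.3 and matplotlib 3.10.9 in Python 3.11.15. Precision is set by how few arrays there are. The labels call repeats biological without stating separate animals, so p-values can measure only the spread between these samples. In tumor the repeat means were equal, so the spread between repeats is missing from the values. The main fit has no block and does not allow for this, so its p-values may be too small. With the block, 2693 genes instead of 4065 were called between the Pecam1- tumor populations. The same repeat numbers pair the muscle samples (correlation of deviations 0.271 to 0.31); in tumor the check is void because repeat means were equal. The named genes were Car3, Car4, their family, the 8 genes most like each, and up to 4 members per list with the smallest adjusted p or all of 5 or fewer called. The members and lists were chosen with earlier results of these data known. Alternatives were another filter, normalization, variance model, probe set rule, the replicate block and leaving out arrays.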

Additional observations from a re-analysis of the deposited data

Results flagged for a closer look

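In 6 of 36 groups of 4 tumor arrays, over the carbonic anhydrases, 1 array lay far from the other 3, where chance gives about 1 in 20 groups, and each time it was the day 38 repeat. Car7 was at 5.996 in Tom+/Pecam1+ cells, against 6.91 to 7.03 in the other repeats, at 5.48 in Tom+/Pecam1- cells, against 4.79 to 4.91, and at 5.33 in Tom-/Pecam1- cells, against 4.96 to 4.99. Car13 was at 4.97 in Tom+/Pecam1+ cells, against 6.29 to 6.54, and at 6.72 in Tom+/Pecam1- cells, against 6.30 to 6.35. Car15 was at 5.93 in Tom+/Pecam1- cells, against 6.42 to 6.48. Since tumor means are equal over repeat numbers, these values are not independent between populations.

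The Tom contrast differed between Pecam1- tumor cells and muscle. For Car3 the difference was 3.92, with 4 of 4 tumor repeats higher and 3 of 3 muscle repeats lower in Tom+ cells, and it was not tested. By limma's test of the difference itself it was -1.56 for Car7 (adjusted p = 0.000666), -4.50 for Car8 (adjusted p = 2.47e-08), 1.32 for Car9 (adjusted p = 0.00876), 1.63 for Car11 (adjusted p = 2.30e-05) and 1.08 for Car12 (adjusted p = 8.58e-05).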

How the results depend on the processing

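The 14 differences of Car3 and Car4 were recomputed over 185 settings in all; 2 values changed sign and 5 moved by more than 1 SD. Those that changed sign were the small Car4 difference of Tom+/Pecam1- against Tom-/Pecam1- tumor cells, -0.49 to 0.067 when leaving out 1 array and 0.0036 without the day 38 arrays. Without the first and second muscle repeats, which held salivary gland genes and leave 1 array a population assumed to vary like the others, Car4 differed by 5.04 in Tom+ against Tom- muscle, by -5.32 for the Tom contrast of tumor minus that of muscle, and by -0.34 in Tom-/Pecam1- tumor against Tom- muscle cells (-0.40 on deposited values). With the dimmer probe set Car3 differed by 0.87 in Tom+/Pecam1+ tumor against Tom+ muscle cells. Genes called without those repeats were 3629 for muscle, 2769 for Tom+/Pecam1+ tumor against Tom+ muscle cells and 3992 for the difference of Tom contrasts. They were 8444 for Tom+/Pecam1+ tumor against Tom+ muscle cells on deposited values, where arrays are not centred. Called carbonic anhydrases other than Car3 and Car4 were 2 between the Pecam1- tumor populations with no filter (1 to 2 leaving out 1 array), 3 to 5 leaving out 1 array in Tom+/Pecam1+ against Tom+/Pecam1- tumor cells, 5 without day 38 and 1 without the muscle repeats in Tom+/Pecam1+ tumor against Tom+ muscle cells, and 2 without them in Tom-/Pecam1- tumor against Tom- muscle cells. Car10 turned to 0.045 there on deposited values. With repeat numbers as a replicate block, 2693 genes were called between the Pecam1- tumor populations, and of 64 results for single genes 6 were lost: Slc4a8, Car5b, Car12, Car7, Car10 and Car13, each in the comparison named above; 50 of the 64 were lost under no setting. The block was fitted separately within tumor and within muscle, so it joined no tumor array to a muscle array. Leaving out the day 38 arrays or muscle repeats and using the dimmer probe set were chosen after seeing the data. For the other shifts the cause was not tested.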
